A study of Mus musculus with 4 samples.

Results

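Outside the large homeobox families (such as Hox, Pax, Irx, Dlx, LIM and Nkx) the mouse genome holds many smaller homeobox genes, and 45 of them were followed here, matched by symbol among 24453 genes in the count tables. All 45 were found. They were set apart only by family and were then grouped by their level in control cells, under 1 CPM (counts scaled to library size) or not. The RNA came from EpCAM-positive cells sorted from mouse tongue on embryonic day 16, with the circumvallate papilla left out. EpCAM is an adhesion molecule of the epithelial surface. The 2 control libraries are labelled only as control, and the labels do not give the alleles they carry. The 2 other libraries are labelled Ring1a/b 2KO, with the genotype Ring1a-/-, Ring1b fl/fl (a conditional allele) and Cre recombinase under the Krt14 promoter, which is active in basal cells of stratified epithelium. Whether replicates came from separate or pooled embryos is not stated, so a p-value here reflects variation among these 4 libraries, possibly of technical origin.

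A homeobox encodes the homeodomain, a small helical fold that reads short AT-rich DNA motifs, and the proteins carrying it commit cells of the early embryo to a position or fate. Most act in narrow places: Emx, Vax, En and Gbx genes in the brain, Tlx, Lbx and Pou4f genes in sensory and spinal neurons, Cdx and Evx genes in the gut and the tail end of the body axis. Others work in the face and mouth, where Barx1, Msx1, Msx2 and Shox2 mark the mesenchyme of jaws, teeth and palate and Barx2 marks the ectoderm. Many such genes carry CpG-rich promoters and are classic targets of Polycomb complexes, which hold them silent outside their own domain. Ring1 (Ring1a) and Rnf2 (Ring1b) are the catalytic subunits of Polycomb repressive complex 1, and the comparison asks what happens in tongue epithelium when both are deleted.

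Libraries held 16256569 to 20624055 counts, of which 15.3% and 16.7% in control came from Rn45s, the precursor of ribosomal RNA, and 20.2% and 22.9% in the 2KO-labelled pair. Transcripts of both targeted genes were at least as high under the 2KO label as in control. Ring1 stood at 9.02 and 8.57 CPM in control replicates 1 and 2 and at 16.8 and 15.0 CPM in 2KO-labelled replicates 1 and 2 (edgeR adjusted p = 0.101). Rnf2 stood at 34.0 and 51.3 CPM in the controls, against 62.9 and 62.4 CPM in the 2KO-labelled pair (edgeR adjusted p = 0.126). The deleted exons are not given in the labels and a count over the whole gene does not resolve them, so the genotype was not checked and every direction below is that of the libraries as labelled. The sorting marker Epcam was at 205 ± 22.7 CPM over the controls against 230.3 ± 20.4 CPM over the 2KO-labelled pair (SD, n = 2 per group). In bulk RNA, more cells of a type and more RNA per cell cannot be told apart.

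Of the 45 homeobox genes, 12 rose and 1 fell in the 2KO-labelled libraries. By the same rule, an adjusted p under 0.05, 4.39% of all 24453 genes in the files were called higher and 3.08% lower, or 7.00% and 4.92% of the 15336 tested. By the roles assigned here, the genes that rose were Barx1, Msx2, Shox2, Pou3f1 and Meis2 of the face and mouth, Vax2, En2 and Emx2 of the brain, and Pou3f3, Hmx1, Dbx1 and Tlx3 of the hindbrain, spinal cord and sensory organs. Pou3f1 and Meis2 were placed with the face and mouth although they are described more broadly below. The gene that fell was Barx2. Of the other 32, 12 were tested without a call, 14 had too few counts to be tested and 6 had no count in any library. The last were Cdx2, Cdx4, Gsx1, Gsx2, Otp and Pou4f2, for which 0 counts allow a level of up to 0.0801 CPM over the controls against 0.0793 CPM over the 2KO-labelled pair (3 counts over a group). The median level over all 45 was 0.098 CPM over the controls against 0.885 CPM over the 2KO-labelled pair, beside 2.24 and 2.96 CPM over all genes. A member with few control counts could be tested only through its counts in the 2KO-labelled libraries, so shares are given over all 45 and not over the 25 tested.

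**Figure D1:**
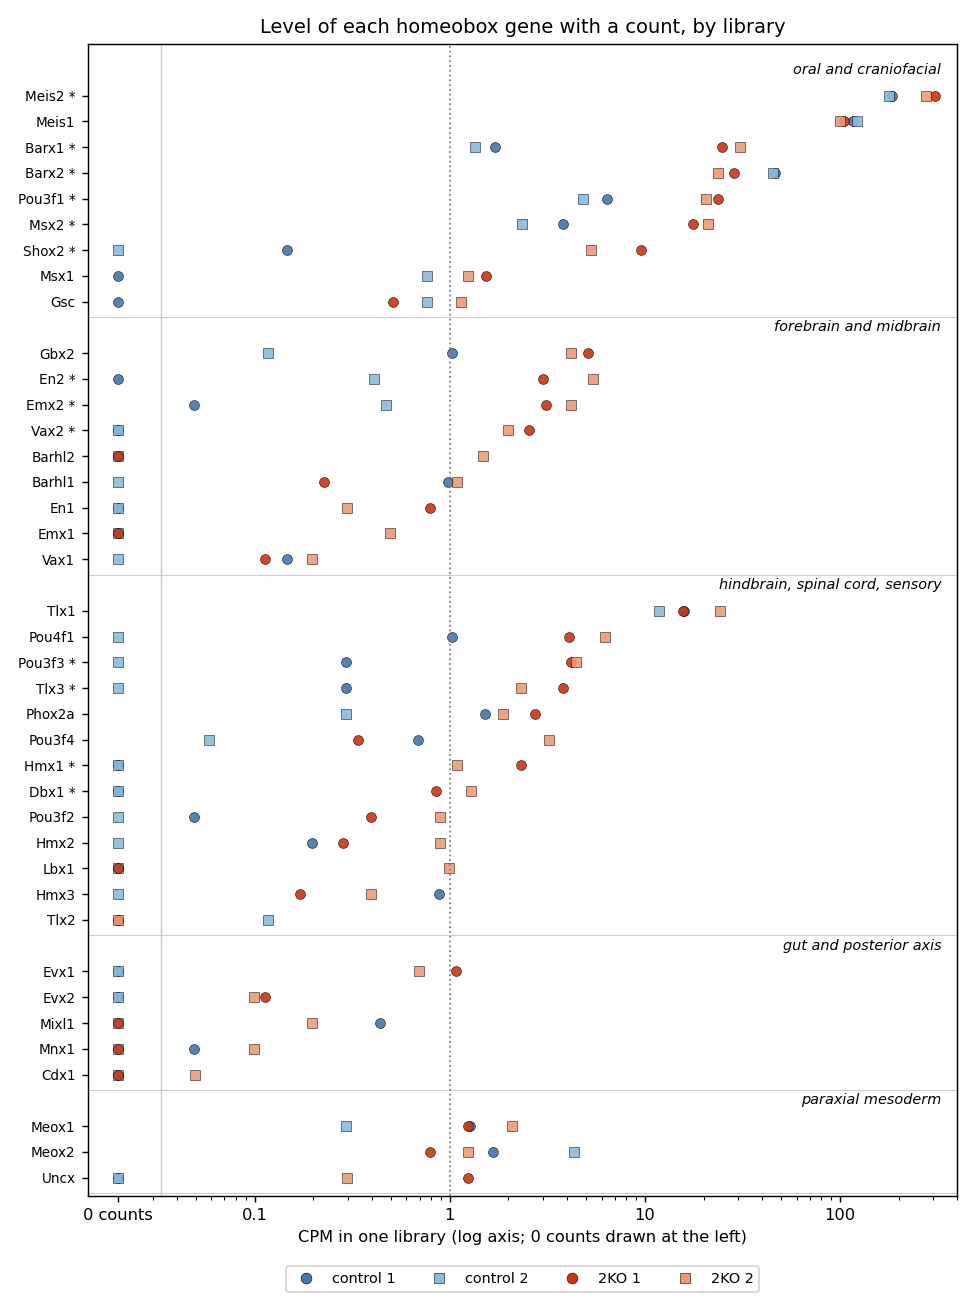
CPM of each of the 39 members with a count, by role, with 1 point per library (blue control, red 2KO-labelled, log axis); genes with 0 counts in a library are drawn at the left edge, the dotted line marks 1 CPM and an asterisk marks the 13 called genes. Both red points lie to the right of both blue points for 22 of the 45 members, most of these 22 left of 1 CPM in control. Over all genes this held for 5150 of 24453.

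What these genes share beyond their family was looked for in the promoter, where a RefSeq window (GRCm38.p6, 250 bases before to 50 after the start) was at hand for 36 of the 45. Entries were missing for Barx2, Cdx1, En2, Lbx1, Meox1, Mixl1, Pou3f1, Tlx2 and Vax2. The motif searched was CG, which reads the same on both strands, and its count was set against that expected from the C and G content. The median of this ratio was 0.789 over the 36 members and 0.565 over 17600 genes of the files with a window. By a limit of at least 0.6 with a GC content of at least 50%, 25 of the 36 (69.4%) were CpG-rich, beside 45.0% of those genes. All 9 members that rose and had a window were CpG-rich, with ratios of 0.61 to 0.94, and 3 of the 6 members without a count in any library were. With the 250 bases before the start alone these became 7 of 9 and 5 of 6, so the order of these 2 groups depended on the window, whereas the members as a whole stayed above other genes (72.2% against 41.4%). Of the members under 1 CPM in control with a window, 6 rose and 24 were not called or not tested. Their median ratios were 0.768 and 0.799 in the whole window. CpG-rich were 100% and 66.7% of them there, and 83.3% and 75.0% with the 250 bases alone. A link between CpG content and rising was not tested.

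The promoters of 4 members are printed as examples, 5′ to 3′ on the gene's strand and with each CG in capitals. The genes are Barx1, the member with the smallest p, Msx2, Dbx1, which had no control count, and Otp, which had no count anywhere. All 4 windows were CpG-rich by the limit above, and so do not show the range of 0.375 to 1.24 over the 36 members. The windows are chr13:48662786-48663085 (plus strand) for Barx1, chr13:53472731-53473030 (minus) for Msx2, chr7:49636786-49637085 (minus) for Dbx1 and chr13:94875386-94875685 (plus) for Otp.
Barx1: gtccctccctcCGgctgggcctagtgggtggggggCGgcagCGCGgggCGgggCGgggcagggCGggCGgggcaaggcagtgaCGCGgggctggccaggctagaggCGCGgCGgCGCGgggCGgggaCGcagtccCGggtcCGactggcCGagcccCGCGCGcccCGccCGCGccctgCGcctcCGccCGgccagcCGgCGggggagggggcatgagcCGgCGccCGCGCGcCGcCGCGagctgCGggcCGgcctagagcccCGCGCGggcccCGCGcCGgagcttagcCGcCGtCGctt
Msx2: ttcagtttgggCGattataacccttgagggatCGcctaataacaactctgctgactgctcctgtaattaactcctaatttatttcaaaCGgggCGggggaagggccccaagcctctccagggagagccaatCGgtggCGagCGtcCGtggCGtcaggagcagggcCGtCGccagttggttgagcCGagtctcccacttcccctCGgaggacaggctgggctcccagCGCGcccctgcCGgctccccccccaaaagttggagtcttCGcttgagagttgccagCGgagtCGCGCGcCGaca
Dbx1: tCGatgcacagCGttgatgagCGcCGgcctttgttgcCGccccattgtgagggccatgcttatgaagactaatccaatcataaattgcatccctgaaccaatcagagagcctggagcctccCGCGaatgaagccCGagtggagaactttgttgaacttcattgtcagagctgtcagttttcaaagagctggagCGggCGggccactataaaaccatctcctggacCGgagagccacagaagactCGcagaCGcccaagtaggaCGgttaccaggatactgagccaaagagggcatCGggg
Otp: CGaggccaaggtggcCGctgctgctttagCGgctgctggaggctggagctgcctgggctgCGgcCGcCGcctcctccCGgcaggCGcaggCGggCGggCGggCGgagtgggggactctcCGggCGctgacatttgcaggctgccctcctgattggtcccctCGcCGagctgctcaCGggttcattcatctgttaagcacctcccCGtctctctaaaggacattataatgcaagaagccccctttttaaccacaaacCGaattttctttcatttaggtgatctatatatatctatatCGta
The Barx1 window holds 50 CGs at a GC content of 84.7%, Msx2 22 at 61.0%, Dbx1 15 at 54.0% and Otp 20 at 58.7%. Otp, without a count in any library, had a CG ratio (0.78) close to that of Msx2 (0.79) and above that of Dbx1 (0.69).

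**Figure D2:**
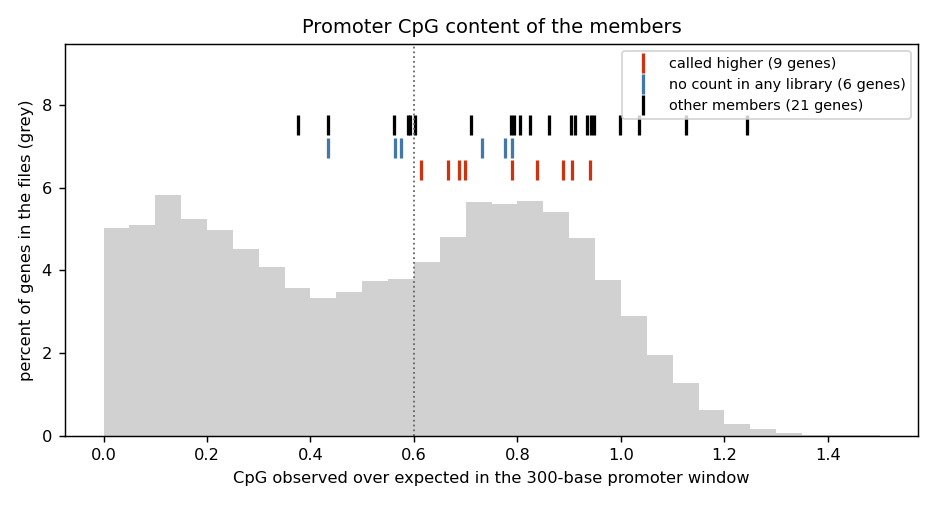
CpG observed over expected in the 300-base promoter window: grey bars give the percent of all genes of the files at each value, with values above 1.5 drawn at 1.5, and ticks give single members that rose (red), had no count in any library (blue) or belonged to neither class (black); the dotted line marks 0.6. The red ticks lie between 0.61 and 0.94 and the blue ones between 0.43 and 0.79.

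Of 9 genes grouped here with the mouth and face, Pou3f1, Meis1 and Meis2 among them, 5 rose and 1 fell. Over all genes in the files the shares were 4.39% and 3.08%. Barx1, a factor of first-arch and stomach mesenchyme and of molar tooth patterning (chromosome 13, 48662998 to 48666507, mm10), was at 1.72 and 1.35 CPM in control replicates 1 and 2 and at 24.9 and 30.7 CPM in 2KO-labelled replicates 1 and 2. The libraries of each group lay close together, and the log2 fold change was 4.17 (standard error 0.347, edgeR adjusted p = 7.63e-05). Barx2, its paralog in oral ectoderm and muscle precursors (chromosome 9, 31846044 to 31913462), went the other way, from 46.6 and 45.2 CPM to 28.5 and 23.6 CPM. The groups did not overlap and the log2 fold change was -0.82 (standard error 0.213, edgeR adjusted p = 0.0317), and Barx2 was no longer called without 2KO-labelled replicate 2 (adjusted p = 0.188) and on the deposited FPKM values (0.083 with a pseudocount of 1, 0.0837 with 0.1).

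Msx2, a target and effector of BMP signalling in teeth, skull and hair (chromosome 13, 53466884 to 53473074), was at 3.82 and 2.35 CPM in the controls, against 17.7 and 21.0 CPM in the 2KO-labelled pair. Its log2 fold change was 2.64 (standard error 0.382, edgeR adjusted p = 0.00154). Pou3f1 (Oct6), a POU factor made in suprabasal keratinocytes and in Schwann cells (chromosome 4, 124656807 to 124660655), was at 6.42 and 4.81 CPM and then at 23.8 and 20.6 CPM, a log2 fold change of 1.98 (standard error 0.317, edgeR adjusted p = 0.00282). For both genes each 2KO-labelled library stood far above each control. Shox2, a factor of the palate, limb and sinus node (chromosome 3, 66971727 to 66981771), had 3 and 0 counts in control and 168 and 107 in the 2KO-labelled libraries. In CPM these were 0.147 and 0, then 9.53 and 5.29, and the counts pooled by group and scaled to library size gave a ratio of 90.7 with an exact 95% counting interval of 30.7 to 442 (edgeR adjusted p = 0.00235). The fitted log2 fold change was 6.45, and it was 10.1 without control replicate 1 and 5.6 without control replicate 2. Of the exon bases of Shox2, 4.6% are shared with Rsrc1 on the opposite strand, and of Pou3f1 8.6% with Gm2164, so reads there could not be assigned with certainty.

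Meis1 and Meis2, cofactors that bind DNA together with Pbx and Hox proteins, had the most counts of all members. Meis2 (chromosome 2, 115863064 to 116065839) was at 185 and 178 CPM in the controls, against 308 and 276 CPM in the 2KO-labelled pair. The log2 fold change was 0.69 (standard error 0.148, edgeR adjusted p = 0.0135), and the call was lost without 2KO-labelled replicate 1 (adjusted p = 0.0756) and on FPKM values (0.0623 and 0.0635). Meis1 was at 117 and 122 CPM and then at 105 and 100.5 CPM, a log2 fold change of -0.22 (standard error 0.157, edgeR adjusted p = 0.413). Within each library the ratio of Meis2 to Meis1 in CPM was 1.58 and 1.46 in control and 2.94 and 2.75 in the 2KO-labelled libraries. The 2 groups of ratios did not overlap, but with 2 against 2 an exact two-sided permutation test cannot go below p = 0.333. For the partners Pbx2 and Pbx3 the log2 fold changes were 0.33 and 0.10, without a call (edgeR adjusted p = 0.377 and 0.773).

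Msx1 and Gsc, both genes of facial mesenchyme, had few counts and were not called. Msx1 had 0 and 13 counts in control and 27 and 25 in the 2KO-labelled libraries (log2 fold change 1.87, standard error 1.43, edgeR adjusted p = 0.442). The authors' FPKM values (read values scaled to gene length and library size) listed Msx1 at 0.645 and 1.18 in control and at 5.83 and 3.81 in the 2KO-labelled libraries, so a library with no counted read still had an FPKM above 0, and the 2 kinds of file assign its reads differently. No fit on FPKM values called it. Gsc was at 0 and 0.763 CPM in the controls, against 0.510 and 1.14 CPM in the 2KO-labelled pair, with groups that overlapped.

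Of 12 genes of the forebrain and midbrain 3 rose (4.39% over all genes in the files), each from at or near 0 in control. Vax2, which patterns the ventral eye (chromosome 6, 83711264 to 83738313), had no control count, and 45 and 40 counts in the 2KO-labelled libraries, or 2.55 and 1.98 CPM. Their mean was 28.3 times a floor of 3 counts over the control group (0.0801 CPM). Such a ratio does not allow for the spread of the 2KO-labelled libraries and is no bound on the fold change. Vax2 was called (edgeR adjusted p = 0.0133), a call lost on log2(FPKM + 1) values (0.0704) and kept with a pseudocount of 0.1 (0.0426). En2, a factor of the midbrain and cerebellum (chromosome 5, 28165694 to 28172166), was at 0 and 0.411 CPM in the controls, against 3.01 and 5.44 CPM in the 2KO-labelled pair. Emx2, a factor of the cerebral cortex and the urogenital tract (chromosome 19, 59458372 to 59465357), was at 0.0490 and 0.469 CPM and then at 3.12 and 4.21 CPM.

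The log2 fold changes were 4.38 for En2 (standard error 1.21, edgeR adjusted p = 0.0398) and 3.83 for Emx2 (1.08, adjusted p = 0.0426). Their calls were lost without 2KO-labelled replicate 2 (adjusted p = 0.148 and 0.168), with limma-voom (0.0659 and 0.0696) and on FPKM values (0.0657 and 0.0736 for En2, 0.0700 and 0.0850 for Emx2, with pseudocounts of 1 and 0.1). The size of the change rested on which control was kept: without control replicate 1 or 2 the log2 fold change was 3.36 or 9.36 for En2 and 2.97 or 6.05 for Emx2. Emx2 shares 8.8% of its exon bases with Emx2os on the opposite strand. Gbx2, which sets the boundary between midbrain and hindbrain, lay next in line. It was at 1.03 and 0.117 CPM in the controls, against 5.10 and 4.21 CPM in the 2KO-labelled pair (log2 fold change 2.98, edgeR adjusted p = 0.0643), and 43.5% of its exon bases are shared with D130058E05Rik on the opposite strand. Gbx2 was called with DESeq2 (adjusted p = 0.0147), with the replicate block (0.0434), without control replicate 1 (0.00119, log2 fold change 5.25, against 2.18 without control replicate 2) and with all low counts kept (0.00627).

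Another 5 brain genes were at or near the limit of detection. En1 had no control count and 14 and 6 counts in the 2KO-labelled libraries. Barhl2 and Emx1 had no control count, none in 2KO-labelled replicate 1, and 30 and 10 counts in replicate 2. One library alone thus carried their signal. Barhl1 had 20 and 0 counts in control and 4 and 22 in the 2KO-labelled libraries, so that its groups overlapped, and Vax1 had 3 and 0 and then 2 and 4.

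Among 14 genes of the hindbrain, spinal cord and sensory ganglia, 4 rose and none fell. Over all genes in the files 4.39% rose and 3.08% fell, so no fall among 14 genes is near that share. Pou3f3 (Brn1), a factor of neural progenitors and kidney tubules (chromosome 1, 42695768 to 42703176), was at 0.294 and 0 CPM in the controls, against 4.20 and 4.45 CPM in the 2KO-labelled pair (log2 fold change 4.76, standard error 1.14, edgeR adjusted p = 0.0229). Hmx1, a factor of the eye, external ear and sensory ganglia (chromosome 5, 35389108 to 35399730), had 0 control counts and reached 2.33 and 1.09 CPM in the 2KO-labelled pair. Their mean was 21.3 times the control floor (edgeR adjusted p = 0.0250). Dbx1, of interneuron progenitors in the spinal cord (chromosome 7, 49631499 to 49636849), had 0 control counts and 15 and 26 counts in the 2KO-labelled pair. In CPM their mean was 13.3 times the control floor (edgeR adjusted p = 0.0454). Tlx3, which selects the excitatory fate in dorsal spinal neurons (chromosome 11, 33200752 to 33203589), was at 0.294 and 0 CPM and then at 3.80 and 2.33 CPM, with a log2 fold change of 4.26 (standard error 1.25, adjusted p = 0.0498).

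Of these only Pou3f3 was called in every fit on counts, but its log2 fold change was 9.32 without control replicate 1 and 3.86 without control replicate 2, and that of Tlx3 was 8.82 and 3.36. A fitted value against a lone control with 0 counts depends on the prior count of the fit and is no bound. Hmx1, which shares exon bases with 4930442P19Rik on the opposite strand, lost its call without 2KO-labelled replicate 1 (adjusted p = 0.147). Dbx1 lost it without any 1 of the 4 libraries (adjusted p from 0.108 to 0.246). Tlx3 lost it without 2KO-labelled replicate 1 (0.198), without control replicate 2 (0.0580), with upper-quartile scaling (0.0527), without Rn45s, Malat1 and Lars2 (0.0518) and with limma-voom (0.0777).

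Pou4f1 (Brn3a), a factor of sensory neurons, had higher values than most of these but was not called. It was at 1.03 and 0 CPM in the controls, against 4.08 and 6.23 CPM in the 2KO-labelled pair (log2 fold change 3.28, standard error 1.14, edgeR adjusted p = 0.0879). Without control replicate 1, the only control with a count, the log2 fold change was 9.57 and the adjusted p 4.98e-05, while without control replicate 2 they were 2.32 and 0.0566, and the gene was also called without 2KO-labelled replicate 1 (0.0151), with DESeq2 (0.0153) and with no filter on low counts (0.0015). Phox2a, of autonomic neurons, was at 1.52 and 0.293 CPM and then at 2.72 and 1.88 CPM, and Pou3f4, of the inner ear, at 0.686 and 0.0587 CPM and then at 0.340 and 3.22 CPM. Phox2a kept its groups apart while those of Pou3f4 overlapped, and neither was called (adjusted p = 0.430 and 0.326). Tlx1, which is needed for the spleen, was the only gene of its class at or above 1 CPM in control, at 15.8 and 11.9 CPM in the controls, against 15.7 and 24.3 CPM in the 2KO-labelled pair (log2 fold change 0.53, adjusted p = 0.297). The groups overlapped, with a control and a 2KO-labelled library at nearly one level.

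The others of this class were too low to test. Pou3f2 had 1 and 0 counts in control and 7 and 18 in the 2KO-labelled libraries, or 24.7 times the control level (95% counting interval 4.05 to 1015). Hmx2 had 4 and 0 counts and then 5 and 18, whereas its neighbour on chromosome 7, Hmx3, had 18 and 0 and then 3 and 8. Lbx1, a factor of muscle precursors and dorsal interneurons, had 20 counts in 2KO-labelled replicate 2 and none elsewhere. Tlx2 had 2 counts in control replicate 2 and none elsewhere.

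None of the 7 genes of the gut and the tail end of the axis, and none of the 3 of the somites, was called. Only 1 of the 7 and 2 of the 3 had enough counts to be tested. Over all genes in the files 4.39% were called higher and 3.08% lower, so no call among so few genes is near that share. Cdx1, a factor of intestinal identity, had 1 count in all, in 2KO-labelled replicate 2, and Cdx2 and Cdx4 had none. Evx1 (chromosome 6) had 0 control counts and reached 1.08 and 0.693 CPM in the 2KO-labelled pair, a mean of 11.05 times the control floor. It was not called by edgeR (adjusted p = 0.0592) and was called with DESeq2 (adjusted p = 0.0484). Evx1 and Evx2 sit at the ends of Hox clusters. Evx2, which lies 8.8 kb from Hoxd13, had 0 and 0 counts and then 2 and 2, while Hoxd13 was at 0.0490 and 0.0587 CPM in the controls, against 31.7 and 37.4 CPM in the 2KO-labelled pair. Mnx1, of motor neurons and pancreas, had 1 and 0 counts and then 0 and 2, and Mixl1, of the primitive streak, 9 and 0 and then 0 and 4.

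Meox1 and Meox2 mark the somites and the mesenchyme of muscle, and Meox2 also endothelium. Meox2 was at 1.67 and 4.34 CPM in the controls, against 0.794 and 1.24 CPM in the 2KO-labelled pair (log2 fold change -1.55, standard error 0.871, edgeR adjusted p = 0.280). Its highest value was in control replicate 2, where the sarcomere gene Ttn was at 222 CPM (34.3, 43.2 and 38.9 CPM in the others). The 10 skeletal muscle genes of the marker list summed to 394 CPM there and to 65.4, 68.1 and 84.4 CPM in the other libraries, and the part of muscle cells in the Meox2 value was not tested. Without control replicate 2 the log2 fold change of Meox2 was -0.70 (edgeR adjusted p = 0.794). Meox1 was at 1.27 and 0.293 CPM and then at 1.25 and 2.08 CPM, with overlapping groups. Uncx, of the posterior somite, had no control count and 22 and 6 counts in the 2KO-labelled libraries.

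Grouped by control level, 37 members stood under 1 CPM and 8 at or above it. Nearest to the limit were Gbx2, Meox1 and Phox2a below it, at 0.573, 0.784 and 0.906 CPM, and Barx1, Meox2 and Msx2 above it, at 1.53, 3.004 and 3.09 CPM. Of the 37 low members 8 rose, beside 1.74% of all 10768 genes under 1 CPM in control. In 18 of the 37 both 2KO-labelled libraries lay above both controls, beside 14.5% of those genes. Many of the 10768 could not be called: 5242 had no count in any library and 1677 were tested, of which 11.2% rose. Of the 37 members 6 had no count and 17 were tested. Of the 17 members with 0 counts in both controls, 4 (Vax2, Hmx1, Dbx1 and Evx1) had at least 10 counts in each 2KO-labelled library, beside 0.987% of 6382 such genes. Of the 8 higher members 4 rose (Barx1, Msx2, Pou3f1 and Meis2) and 1 fell, beside 6.47% and 5.51% of 13685 genes at or above 1 CPM. Both 2KO-labelled libraries were above both controls in 4 of the 8 and below in 3 (Barx2, Meis1 and Meox2), beside 26.2% and 31.7%, so the share below was near the background.

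Since control values set both the level and the fold change, the sets were not tested against each other. Taking the level from control replicate 1 and the change against replicate 2 alone, 16 of 33 members under 1 CPM were more than 2-fold higher in the 2KO-labelled mean on log2(CPM + 0.5), 48.5% beside 17.1% of genes with a count at that level. With the controls exchanged, 17 of 37 members were (45.9% beside 16.0%). At or above 1 CPM these shares were 58.3% and 37.5% of 12 and 8 members, beside 11.2% and 9.93%. At either level and in both readings the share among members was above that over genes with a count. The members under 1 CPM include the 6 without any count, whereas the genes beside them all had one. Both readings use the same 2KO-labelled mean and are not independent. Which of the 2 sets of members had the larger share differed between the readings.

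**Figure D3:**
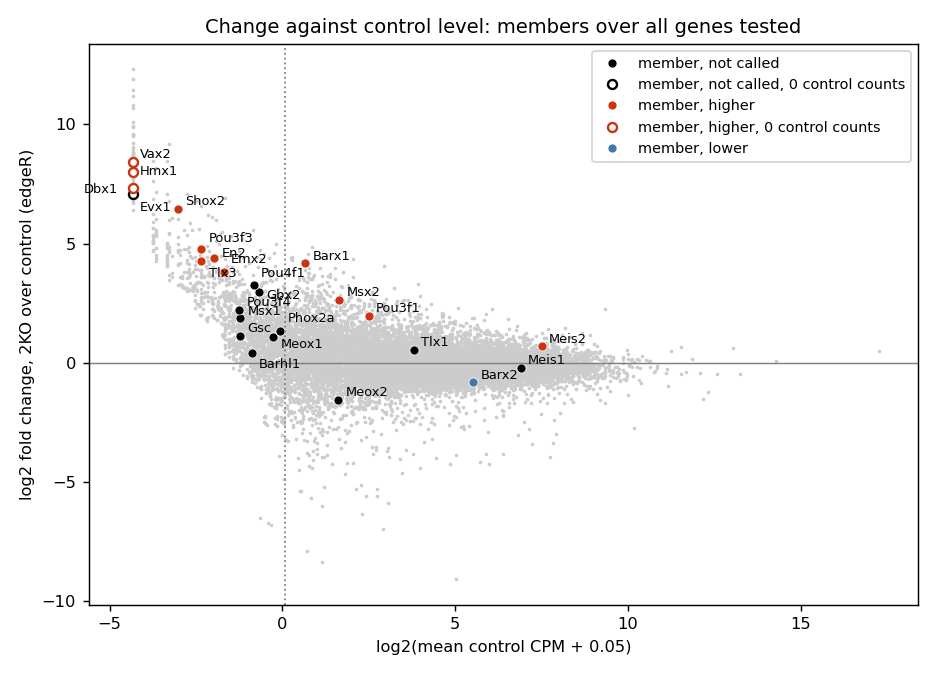
Log2 fold change (2KO-labelled over control, edgeR) against log2(mean control CPM + 0.05) for the 25 tested members (labelled; red higher, blue lower, black not called) and all 15336 genes tested (grey); open points had 0 control counts, and their fitted value depends on the fit's prior count and is no bound. Barx1, Msx2, Pou3f1 and Meis2 lie above 0 to the right of the dotted line at 1 CPM, and Barx2 is the called gene below 0.

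The low members did not have one level in control. Summed over the 37, they reached 9.07 CPM in control replicate 1 and 3.29 CPM in control replicate 2, against 49.3 and 54.2 CPM in the 2KO-labelled libraries. Control replicate 1 was the higher control for 15 of the 20 low members with a control count, among them Pou4f1, Barhl1, Hmx3 and Phox2a. Over all genes under 1 CPM it was the higher control for 2458 and the lower for 1928. A count was present for 24 and 17 of the 45 members in the controls and for 32 and 38 in the 2KO-labelled libraries.

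Levels of different members were compared by FPKM, which allows for gene length. In control Meis1, Meis2 and Barx2 stood together, with means of 29.6, 29.4 and 29.3 FPKM, followed by Tlx1 at 10.6, Pou3f1 at 2.81 and Barx1 at 2.43 FPKM. In the 2KO-labelled libraries the order was Meis2 at 49.7, Barx1 at 42.2, Meis1 at 27.9, Barx2 at 17.9, Tlx1 at 14.3, Pou3f1 at 10.5 and Msx2 at 8.63 FPKM. The neighbours Meis2 (53.7 and 45.7 FPKM) and Barx1 (38.8 and 45.6 FPKM) came close there, and in the controls the libraries of Meis1, Meis2 and Barx2 overlapped. Barx1 and Barx2 changed places: the ratio of Barx1 to Barx2 in FPKM was 0.0871 and 0.0787 in control and 1.94 and 2.89 in the 2KO-labelled libraries. In the pairs of brain genes 1 paralog rose and the other stayed below 1 FPKM in every library: Emx2 reached 1.10 and 1.46 FPKM beside 0 and 0.714 for Emx1, En2 reached 1.14 and 1.99 beside 0.407 and 0.105 for En1, and Vax2 reached 3.21 and 1.13 beside 0.0536 and 0.0893 for Vax1. Whether the change differed within these pairs was not tested.

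**Figure D4:**
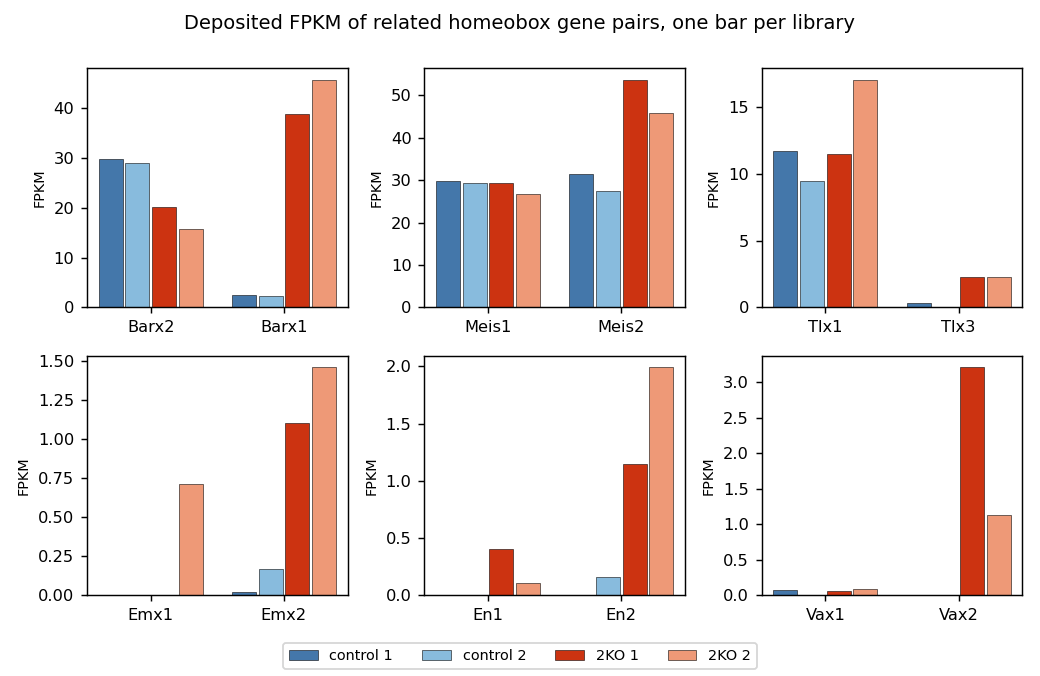
Deposited FPKM, 1 bar per library (blue control, red 2KO-labelled), for 6 pairs of related genes; each panel has its own linear axis from 0. Barx1 passes Barx2 in the 2KO-labelled libraries, Meis2 passes 45 FPKM while Meis1 stays between 26.6 and 29.8, and Emx2, En2 and Vax2 have the higher bars of their pairs.

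Other homeobox genes outside the large families, a list of 63 with 62 in the files, were counted beside the members. Of 43 tested, 12 rose and 2 fell; over all 62 this is 19.4% higher, beside 4.39% of all genes. Zfhx4, a large zinc-finger homeodomain protein, was at 22.3 and 31.5 CPM in the controls, against 78.5 and 77.7 CPM in the 2KO-labelled pair (log2 fold change 1.54, standard error 0.214, edgeR adjusted p = 0.00121). Also called higher, among others, were Prox1 (log2 fold change 1.57), Tshz2 (1.36), Cux2 (2.40), Mkx (4.98) and Satb1 (1.67), and further Pknox2, Dmbx1, Pou6f1 and Zfhx3. Cux1, which had the highest CPM of the list in control, fell from 971 and 916 CPM to 588 and 594 CPM (log2 fold change -0.67, adjusted p = 0.00833), and Hopx, a partial homeodomain protein of differentiating epithelium named after its values were seen, fell from 24.2 and 16.7 to 9.92 and 7.22 CPM (adjusted p = 0.0306). Cux2 and Cux1, like Barx1 and Barx2, were thus called in opposite directions.

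Several members are known from mesenchyme or neurons, so markers of other cells were set beside them. The 10 mesenchymal genes summed to 471 and 560 CPM in control and to 626 and 663 CPM in the 2KO-labelled libraries, with Fn1 called higher and Postn called lower. The 10 endothelial genes summed to 35.9 and 29.1 CPM and then to 53.9 and 75.0 CPM with none called, although Cdh5 and Pecam1 had log2 fold changes of 1.21 and 1.37 (edgeR adjusted p = 0.0684 and 0.104). The 10 neuronal genes summed to 35.9 and 37.3 CPM and then to 33.9 and 45.3 CPM, with Elavl3 called higher and Tubb3 lower, and no neuronal gene of the 10 was at 0 throughout. Sums of 8 Schwann and neural crest genes were 209 and 135 CPM and then 145 and 185 CPM, with none called. Of 5 melanocyte genes Tyrp1 and Tyr had no count, and the sums were 8.04 and 4.34 CPM and then 8.56 and 5.10 CPM.

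Blood and immune genes, 9 of them in the files, summed to 31.6 and 28.0 CPM and then to 59.0 and 49.3 CPM, with Cd68 called higher and Hba-a1 at 0. For 8 genes of Merkel and taste cells the sums were 89.7 and 109 CPM and then 138 and 131 CPM, with Prox1 called higher. The 8 epithelial genes summed to 13894 and 11544 CPM and then to 9539 and 10021 CPM, with Krt18 called higher and Krt5 and Krt14 lower, and with Krt5 at 4398 CPM or more in every library. In these sums single genes weighed heavily, as a recomputation chosen after seeing the data showed. Without Fn1 the mesenchymal genes summed to 357 and 426 CPM in the controls, against 426 and 415 CPM in the 2KO-labelled pair. Without Cd68 the immune sums were 10.3 and 16.1 CPM and then 11.9 and 10.2 CPM, and without Prox1 the Merkel and taste sums were 76.0 and 88.7 CPM and then 84.5 and 83.2 CPM. With these genes left out the groups overlapped in all 3 lists. Only genes called higher were left out, and Postn, called lower, stayed in, which favours overlap. The overlap therefore cannot decide whether the share of these cells changed, which was not tested. Without Elavl3 the neuronal sums were 35.2 and 37.2 CPM and then 27.1 and 41.9 CPM. Without Krt18 the epithelial sums were 13824 and 11476 CPM and then 9423 and 9893 CPM. The endothelial sum, in which no gene was called, was higher in both libraries of the 2KO-labelled pair, and its part in the changes of the members was not tested.

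**Figure D5:**
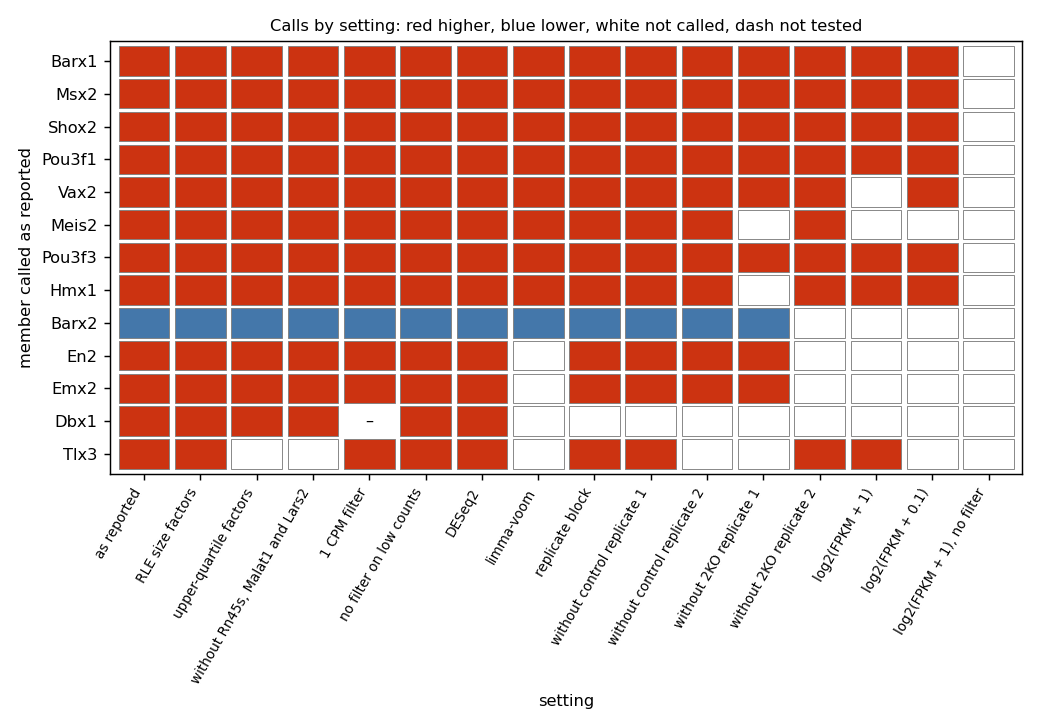
Calls of the 13 called members (rows, ordered by adjusted p) under each way of processing (columns): red is called higher, blue called lower, white not called and a dash not tested. Barx1, Msx2, Shox2, Pou3f1 and Pou3f3 are called in every column but the unfiltered FPKM values, and Dbx1 and Tlx3 lose their calls most often.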

How the data were processed

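Whole-gene read counts and FPKM values of 4 libraries were deposited by the authors. Per the labels' protocols, RNA was reverse transcribed and amplified before sequencing as 100-nucleotide single reads, so reads are not independent molecules and counting intervals cover counting error only. In the submitters' processing notes the tools included HTSeq 0.6.1 and Cufflinks 2.2.1 beside TopHat2 2.0.13 (and DESeq2 1.6.3), on mm10. For annotation and strand setting, and for which tool made which values, the sources used here give nothing. Shared exon bases are from GENCODE M21 of the same build.

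From the deposited counts, edgeR 4.0.16 in R 4.3.3 (TMM, filterByExpr, two-sided quasi-likelihood test of genotype) tested 15336 of 24453 genes, with Benjamini-Hochberg adjustment over all of them and a threshold of 0.05; every adjusted p is from it unless another tool is named. The biological coefficient of variation was 0.313. In simulated counts for the 2KO against control comparison (15299 genes run), 41% of 100 genes changed 2-fold and 68% of 100 changed 4-fold were called. The changed genes were drawn from those with a mean of at least 1 CPM over the 4 libraries, with the spread taken from the fitted trend. These shares therefore do not apply to members below that level. DESeq2 1.42.0 and limma 3.58.1 served as alternatives, the latter also on log2 of the authors' FPKM values with pseudocounts of 1 and 0.1. Replicates differed by more than counting noise (chi-square per degree of freedom 28.7 and 22.7).

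Members and lists were chosen with earlier results of these data known. Members at 1 CPM or more in control or called were named with values, others by counts, those with no count by name. Of the related genes, the 8 called with the smallest p and the Meis partners were to be named; some of these are not reported here.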

Additional observations from a re-analysis of the deposited data

How the results depend on the processing

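With upper-quartile or RLE scaling, without Rn45s, Malat1 and Lars2, with another count filter, with DESeq2 and with the replicate block, 11 or 12 of the 12 higher calls remained and Barx2 stayed lower; limma-voom kept 8 of the 12, with 4 of them (instead of 8) under 1 CPM in control. The number of genes called in all, 1827, was 2796 with no filter on low counts. On filtered FPKM values 573 genes were called with a pseudocount of 1 and 548 with 0.1, of which 74.3% and 73.5% were higher, against 58.7% on counts. With either pseudocount 7 members were higher, 4 of them under 1 CPM, 0 were lower, and 4 related homeobox genes were higher and 0 lower. With no filter on low FPKM values 0 genes, members or related genes were called by limma in either direction, with 3519 genes and 17 members at an unadjusted p under 0.05. The cause was not tested.

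Leaving out each library in turn gave 1405 to 2747 called genes, 9 to 13 higher members, 5 to 9 of them under 1 CPM, and 0 to 1 lower members, with the most genes without control replicate 1 and the fewest low members, and no lower one, without 2KO-labelled replicate 2. Barhl1 changed sign without 2KO-labelled replicate 2 (log2 fold change -1.11, the lowest of a range up to 6.61) and without control replicate 2 (-0.563), and Pou3f4 without 2KO-labelled replicate 2 (-0.152, in a range up to 4.79); neither was called in any fit. A split at 0.5 or 2 CPM put 8 or 9 of the higher calls among low members. Same-numbered libraries did not deviate together (correlation -0.023 over 15336 genes), so the numbers were not taken as pairs; with the replicate block 12 members were higher, Gbx2 in place of Dbx1, 1 was lower and 2036 genes were called in all. Depth limits the low members: 20 of the 45 had too few counts to be tested.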

Other observations

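Reads of several members were spread unevenly over libraries of one group. Lbx1, Barhl2 and Emx1 had 20, 30 and 10 counts in 2KO-labelled replicate 2 and none in replicate 1, and Pou3f4 had 65 and 6. In the same way Hmx3, Barhl1 and Pou4f1 had 18, 20 and 21 counts in control replicate 1 and none in control replicate 2. These genes were picked after their values were seen.

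Evx1 lies 52.6 kb from Hoxa13 and Evx2 8.8 kb from Hoxd13. Hoxa13 had 0 control counts against 3.35 and 3.76 CPM in the 2KO-labelled pair, beside 1.08 and 0.693 CPM for Evx1, whereas Evx2 stayed at 0.113 and 0.0989 CPM beside Hoxd13 at 31.7 and 37.4 CPM.

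For some low genes the 2 kinds of deposited file differed in the size of the gap between the 2KO-labelled libraries. For Tlx3 and Pou3f3 the order differed too, and the 2KO-labelled library with the higher CPM had the lower FPKM. For Vax2 and Dbx1 the order was kept. Vax2 had 45 and 40 counts but 3.21 and 1.13 FPKM, and Dbx1 had 15 and 26 counts but 0.145 and 0.763 FPKM.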
